A study of Homo sapiens with 4 samples.

Results

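The anterior HOXA genes examined here are HOXA2, HOXA3, HOXA4, HOXA5, HOXA6 and HOXA7, 6 of the 20163 protein-coding genes of the GENCODE annotation lifted to hg19. They lie head to tail on the minus strand of chromosome 7, and together they span chr7:27139973-27197555, a stretch of 57583 bp. Each gene was assigned every deposited H3K27ac peak that overlapped 1 kb either side of one of its annotated transcript starts, and all peaks of the HOXA cluster with 50 kb around it were taken as well. The rules that assigned peaks to the genes used positions only.

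The data are H3K27ac ChIP-seq peak lists of 4 human cancer cell lines, with 1 library per line and no replicates. COLO-205 is a colon line kept in RPMI with FBS, and DU-145 is a prostate line kept in Eagle minimal essential medium with FBS. OVCAR-3 and SKOV-3 are ovarian lines, kept in RPMI 1640 medium and in McCoy's 5a minimal essential medium, both with FBS. All 4 libraries used the antibody ab4729 on cells with no treatment named, and the study made them to look at predicted gain of function mutations in non-coding sequence. With 1 library per line, a difference between lines cannot be told apart from a difference between cultures, media or libraries, and no test was made.

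HOX genes encode homeodomain transcription factors that give cells their position along the body axis. Genes at the anterior end of the cluster act in the hindbrain, pharyngeal arches and trunk, whereas genes at the HOXA13 end act in the limb, gut end and urogenital tract. Acetylation of lysine 27 on histone H3 marks active promoters and enhancers, and over HOX clusters it alternates with the repressive mark that Polycomb places on the same lysine. Many HOX proteins bind DNA together with TALE homeodomain cofactors of the PBX, MEIS and PKNOX families.

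The promoter sequences are shown first because the peaks described below were assigned by their distance from starts. RefSeq promoters of GRCh38.p14 were matched for 5 of the 6 genes, and all 11 of their entries, 7 of them for HOXA3, were found once in hg19. Each line gives up to 250 bases before the start, 5′ to 3′, without bases annotated as untranslated. Capitals mark the TATA box (TATAAA), the CCAAT box, the GC box (GGGCGG), a site of HOX with PBX (TGATNNAT) and a nuclear receptor element (AGGTCA), each on either strand. Overlapping matches to 1 motif were counted separately.
HOXA2, chr7:27142303-27142552, minus strand: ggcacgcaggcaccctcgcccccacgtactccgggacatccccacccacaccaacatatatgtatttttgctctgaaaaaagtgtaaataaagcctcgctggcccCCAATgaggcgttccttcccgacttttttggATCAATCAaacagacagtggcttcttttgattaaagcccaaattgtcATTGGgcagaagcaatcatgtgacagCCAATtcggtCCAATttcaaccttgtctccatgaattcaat
HOXA3 before its innermost start, chr7:27153465-27153711, minus strand: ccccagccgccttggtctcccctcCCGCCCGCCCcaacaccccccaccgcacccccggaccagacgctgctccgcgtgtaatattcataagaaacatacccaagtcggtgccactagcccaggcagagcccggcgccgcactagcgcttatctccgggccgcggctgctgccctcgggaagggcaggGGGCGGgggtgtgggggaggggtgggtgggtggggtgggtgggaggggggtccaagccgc
HOXA3 before its canonical start, chr7:27192203-27192452, minus strand: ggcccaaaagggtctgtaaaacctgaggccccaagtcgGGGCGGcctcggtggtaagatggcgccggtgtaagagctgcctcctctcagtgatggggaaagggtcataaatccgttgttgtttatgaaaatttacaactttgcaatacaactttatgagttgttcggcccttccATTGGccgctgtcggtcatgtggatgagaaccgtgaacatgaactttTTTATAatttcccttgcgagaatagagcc
HOXA4, chr7:27170400-27170626, minus strand: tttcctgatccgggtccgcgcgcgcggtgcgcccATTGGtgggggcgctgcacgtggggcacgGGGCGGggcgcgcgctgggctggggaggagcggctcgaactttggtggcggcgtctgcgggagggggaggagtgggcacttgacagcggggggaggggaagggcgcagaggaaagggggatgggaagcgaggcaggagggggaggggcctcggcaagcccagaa
HOXA6, chr7:27187394-27187643, minus strand: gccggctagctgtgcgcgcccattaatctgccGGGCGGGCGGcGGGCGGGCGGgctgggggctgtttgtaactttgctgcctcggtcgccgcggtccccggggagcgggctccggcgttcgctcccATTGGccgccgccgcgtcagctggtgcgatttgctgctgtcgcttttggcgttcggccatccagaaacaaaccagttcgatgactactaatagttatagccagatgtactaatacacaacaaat
HOXA7, chr7:27196374-27196544, minus strand: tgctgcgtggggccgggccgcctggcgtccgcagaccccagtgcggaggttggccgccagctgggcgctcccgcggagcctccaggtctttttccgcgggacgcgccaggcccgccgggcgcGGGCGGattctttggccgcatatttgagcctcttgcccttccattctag

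These promoters differ in base composition and in the motifs they hold. Over the 300-base RefSeq windows, HOXA2 had 11 CpG dinucleotides and HOXA4, HOXA6 and HOXA7 had 27, 29 and 31, against a median of 14 over 35116 RefSeq promoters. The 7 HOXA3 windows ranged from 0 to 29, with 25 at the innermost start and 15 at the canonical one. The HOXA2 window held 4 CCAAT boxes, a motif present in 34.6% of all promoters, and 1 match to TGATNNAT, present in 7.40% of them. The HOXA6 window and the window of the innermost HOXA3 start held 4 GC boxes each, a motif found in 45.0% of all promoters. The TATA box, found in 11.5% of promoters, occurred in 1 of the 11 windows, that of the canonical HOXA3 start. AGGTCA, found in 13.8% of promoters, occurred in none of the 11. A match is a run of letters and not evidence of binding.

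The 4 lists differ in length and depth. They hold 76093 peaks in OVCAR-3, 75468 in DU-145 and 85576 in COLO-205, but 14001 in SKOV-3, from 2.24e+07 to 3.60e+07 tags as recovered from the deposited values. Peaks within 1 kb of a start were found for 60.5% of protein-coding genes in OVCAR-3, 59.8% in DU-145 and 51.1% in COLO-205, but 31.6% in SKOV-3. Among the 933 protein-coding genes of chromosome 7 these shares were, in the same order, 53.8%, 58.1%, 37.1% and 5.25%. SKOV-3 had 65 peaks on the whole of chromosome 7, which is 0.0819 times the density of its median autosome and the lowest of its 22 autosomes. Chromosome 7 was also sparse in the other lists, at 0.416 times the median autosome in COLO-205, 0.434 in OVCAR-3 and 0.651 in DU-145. Whether the SKOV-3 list is complete for chromosome 7 was not tested, and its values at the HOXA genes carry that limit. The median local background at SKOV-3 peaks was 4.10 times the lowest of the library on chromosome 7 and 3.11 times on the other chromosomes. Epithelial marker genes had a promoter peak in 2 of 4 cases in SKOV-3 and in 4 of 4 in each of the other lines. Of the 3 mesenchymal markers 3 had one in SKOV-3, 2 in DU-145 and OVCAR-3 and 1 in COLO-205. Of the 5 colon markers 3 had a peak in COLO-205, 1 in DU-145 and OVCAR-3 and 0 in SKOV-3. The 5 prostate markers did not set DU-145 apart, with 2 marked there, 2 in COLO-205 and OVCAR-3 and 0 in SKOV-3. Of the 5 ovarian carcinoma markers all had a peak in OVCAR-3, but SKOV-3 had 2, fewer than the 3 of COLO-205 and of DU-145. None of the 4 lymphoid and myeloid markers had a peak in any line.

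OVCAR-3 was the line with H3K27ac peaks at all 6 anterior HOXA genes. COLO-205 had peaks at 4 of them (HOXA3, HOXA4, HOXA5 and HOXA7), DU-145 at 3 (HOXA3, HOXA5 and HOXA6) and SKOV-3 at 1 (HOXA3). HOXA3 was thus the gene with a peak in all 4 lists, a property of 25.2% of protein-coding genes. The 6 of 6 in OVCAR-3 stands above 60.5% of all protein-coding genes and 53.8% of those on chromosome 7. The 3 of 6 in DU-145 is below but near both of its shares, 59.8% and 58.1%. The 4 of 6 in COLO-205 is above both of its shares, 51.1% of all genes and, by a wider gap, 37.1% of those on chromosome 7. The 1 of 6 in SKOV-3 stands below 31.6% of all genes and above 5.25% of those on chromosome 7, and the part of chromosome 7 in that count was not tested.

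**Figure D1:**
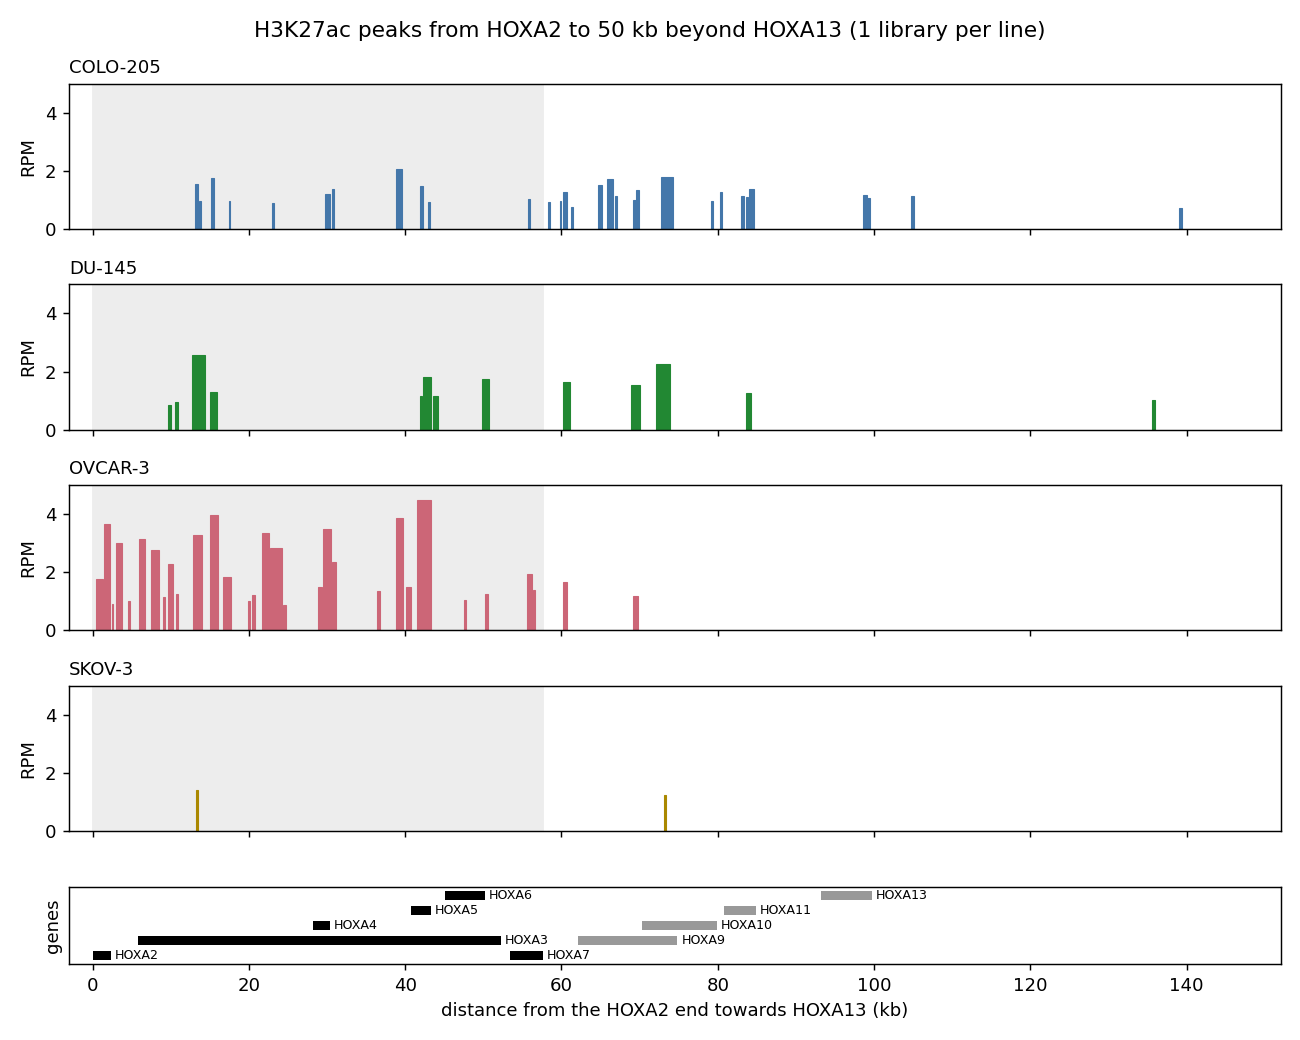
H3K27ac peaks of the 4 lines from HOXA2 to 50 kb beyond HOXA13, with distance from the HOXA2 end in kb on the horizontal axis and summit tags on the vertical axis, scaled to 1000000 tags of the library (RPM); each bar is 1 deposited peak drawn to its width, the grey band is the stretch from HOXA2 to HOXA7, and black and grey boxes are the 6 anterior and the other HOXA genes. OVCAR-3 has 29 peaks in the grey band, COLO-205 has 11, DU-145 has 8 and SKOV-3 has 1.

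Strength was set side by side as RPM, the tags at the summit scaled to 1000000 tags of the library, with an exact Poisson 95% interval that covers counting error only. The median over marked protein-coding promoters was 2.46 RPM in OVCAR-3, 1.86 in DU-145, 1.74 in SKOV-3 and 1.41 in COLO-205. RPM does not remove this difference between lists, so intervals that lie apart need not reflect the HOXA genes alone. The −log10 q is the peak caller's own measure within a library and is not scaled between libraries, and where a line had several peaks the strongest was taken as the one with the highest −log10 q. A gene without a peak is not at 0, because the lists hold only positions that passed the caller's threshold. At a local background within 10% of the median of the HOXA peaks, the weakest deposited peaks had 0.614 RPM in OVCAR-3, 0.705 in COLO-205, 0.666 in DU-145 and 0.848 in SKOV-3. Summits below these levels were not listed at such a background. Where the background was lower, the region held weaker listed peaks, down to 0.585 RPM in OVCAR-3, 0.604 in COLO-205 and 0.499 in DU-145. In bulk chromatin, fewer cells with the mark and less of the mark per cell cannot be told apart.

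HOXA2, which patterns the hindbrain and the second pharyngeal arch, had peaks in OVCAR-3 and in no other list. The OVCAR-3 list held 4 peaks within 1 kb of its starts, covering 59.5% of the windows. The strongest, chr7:27141488-27142148, lay in the gene body with its summit in a coding exon 455 bp downstream of the canonical start. It had 125 tags at the summit, 3.65 RPM (3.04 to 4.35), with a −log10 q of 94.0. The nearest peak to a HOXA2 start was 4408 bp away in DU-145 and over 10 kb away in COLO-205 (10787 bp) and SKOV-3 (10912 bp).

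HOXA3, needed for the thymus and parathyroid glands, has 6 annotated starts, the most of the 6 genes, and they differ in the mark. Its longest transcripts run across HOXA4, HOXA5 and HOXA6, and ChIP-seq carries no strand, so a peak inside this stretch cannot be assigned to 1 gene. The innermost start, at chr7:27153464, was covered in all 4 lines. A start of HOXA-AS2, a non-coding transcript on the other strand, lay 83 bp from the SKOV-3 peak. The peaks at the innermost start therefore cannot be assigned to HOXA3 alone. There the strongest peaks had 3.27 RPM in OVCAR-3 (2.70 to 3.94), 2.55 in DU-145 (2.06 to 3.13), 1.54 in COLO-205 (1.13 to 2.06) and 1.43 in SKOV-3 (0.977 to 2.02). Each line overlapped the next in this order, while the interval of OVCAR-3 lay above those of COLO-205 and SKOV-3 and that of DU-145 above that of SKOV-3. The 4 summits fell within 81 bp of each other, 140 to 221 bp downstream of the start, and the bases common to the 4 peaks are chr7:27153217-27153472.

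The SKOV-3 peak at this start, chr7:27153217-27153472, was the only one of that line between HOXA2 and HOXA7. It is 256 bp wide, with 32 tags, a −log10 q of 10.4 and a 4.69-fold enrichment, near the middle of its list at percentile 50.2. The DU-145 peak over the same start, chr7:27152638-27154331, is 1694 bp wide and has a −log10 q of 51.0, which places it at percentile 98.7 of its list. It had the highest −log10 q of DU-145 in the whole cluster and 50 kb around it, though not the highest RPM.

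A group of 3 HOXA3 starts from chr7:27179825 to chr7:27179844 was marked in 2 lines. COLO-205 had a peak at chr7:27178845-27179560 with 2.05 RPM (1.57 to 2.63) and a −log10 q of 24.2, its strongest of the region. OVCAR-3 had one at chr7:27178793-27179676 with 3.89 RPM (3.25 to 4.61) and a −log10 q of 92.3. DU-145 and SKOV-3 had none there, with the nearest peaks 1995 and 26353 bp away. The canonical start, at chr7:27192202, had no peak within 1 kb in any of the 4 lists, and its nearest peaks were 1642 bp away in OVCAR-3, 1527 bp in DU-145, 3425 bp in COLO-205 and, farthest, 20893 bp in SKOV-3. All HOXA3 promoter peaks assigned by GENCODE starts thus belong to its other 5 starts. RefSeq gives further HOXA3 starts near other peaks, such as chr7:27161991, which lies inside an OVCAR-3 peak.

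**Figure D2:**
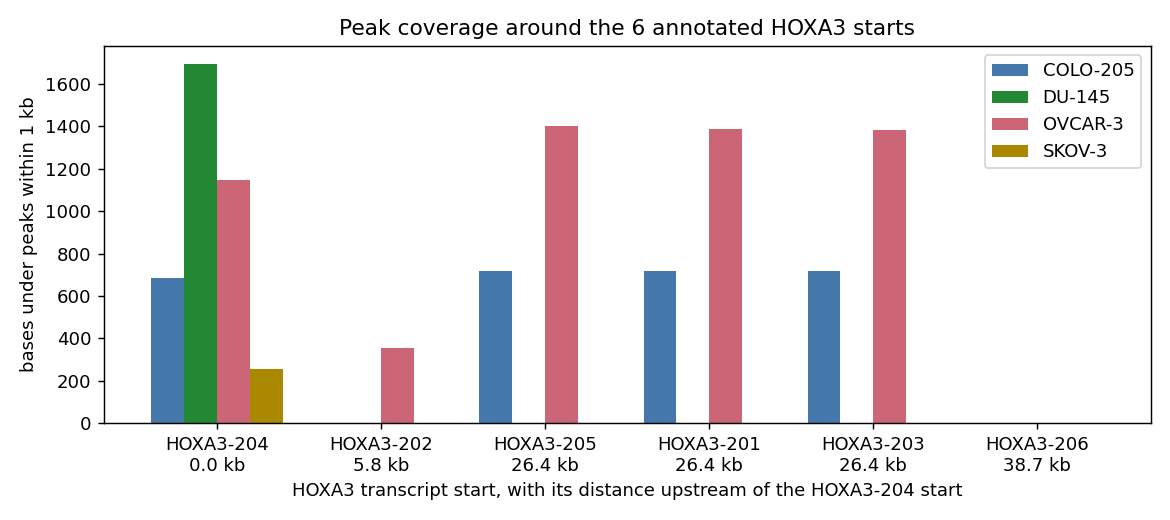
Bases under deposited peaks within 1 kb of each of the 6 HOXA3 transcript starts (vertical axis, bp), with the starts ordered by their distance upstream of the innermost one and 1 bar per line. At the innermost start, leftmost, the bars are 1694 bp in DU-145, 1148 in OVCAR-3, 686 in COLO-205 and 256 in SKOV-3, and at the canonical start, rightmost, all 4 lines are at 0.

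HOXA4, a gene of trunk and vertebral patterning, had peaks in COLO-205 and OVCAR-3. In COLO-205 the peak with the higher −log10 q of 2 (10.9), chr7:27169775-27170317, had 1.21 RPM (0.846 to 1.67). The other, chr7:27170670-27170899, had a −log10 q of 7.71 but a higher 1.38 RPM (0.987 to 1.87). In OVCAR-3 the strongest of 3, chr7:27169422-27170421, had 3.48 RPM (2.88 to 4.16) and a −log10 q of 89.6, and the 3 peaks covered 75.9% of the windows. The OVCAR-3 value was higher, and its interval overlapped neither of those of COLO-205. DU-145 had no peak within 11440 bp of a HOXA4 start and SKOV-3 none within 16338 bp.

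HOXA5, which acts in lung development and is often silenced by methylation in carcinomas, carried the strongest OVCAR-3 peak of the cluster. That peak, chr7:27181494-27183222, is 1729 bp wide and had 154 tags, 4.50 RPM (3.82 to 5.27), with a −log10 q of 148 and a 21.1-fold enrichment. DU-145 had 3 peaks at HOXA5, the strongest with 1.80 RPM (1.39 to 2.30) and a −log10 q of 26.8. COLO-205 had 2, the stronger with 1.48 RPM (1.07 to 1.98) and a −log10 q of 19.9. The intervals of COLO-205 and DU-145 overlapped and both lay below that of OVCAR-3. The OVCAR-3 summit lay 373 bp downstream of the inner HOXA5 start and 1279 bp downstream of the canonical start, while the DU-145 summit lay 230 bp downstream of the canonical start. SKOV-3 had no peak within 28922 bp.

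HOXA6, a trunk gene of the same series, had the lowest value of the 6 in OVCAR-3, and it was the only one with a higher value in another line. OVCAR-3 had 1.26 RPM (0.910 to 1.69) with a −log10 q of 9.54 at chr7:27190232-27190560, and a second peak upstream of the canonical start with a −log10 q of 9.06. DU-145 had 1.75 RPM (1.34 to 2.24) with a −log10 q of 19.0 at chr7:27189799-27190675. The 2 intervals overlapped. Both of these peaks lie at the outer HOXA6 start, at chr7:27190222, of a transcript without a defined coding sequence. Their summits fall in an exon of HOXA-AS3 on the other strand. A RefSeq HOXA3 start at chr7:27190569 also lies within 1 kb of both peaks, so they cannot be assigned to HOXA6 alone. The canonical HOXA6 start was marked in OVCAR-3 alone of the 4 lists. COLO-205 had no peak within 4282 bp of a HOXA6 start and SKOV-3 none within 22873 bp.

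HOXA7, the last of the anterior genes and one described in ovarian epithelial tumours, had peaks in OVCAR-3 and COLO-205. In OVCAR-3 the stronger of 2 peaks, chr7:27195600-27196160, had 1.96 RPM (1.52 to 2.49) and a −log10 q of 26.5. In COLO-205 the stronger of 2, chr7:27195627-27195974, had 1.04 RPM (0.707 to 1.48) and a −log10 q of 5.37, at percentile 11.04 of its list. The intervals did not overlap, but both values lay below the median over marked promoters of their line, 2.46 in OVCAR-3 and 1.41 in COLO-205. DU-145 had no peak within 2572 bp and SKOV-3 none within 15540 bp.

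**Figure D3:**
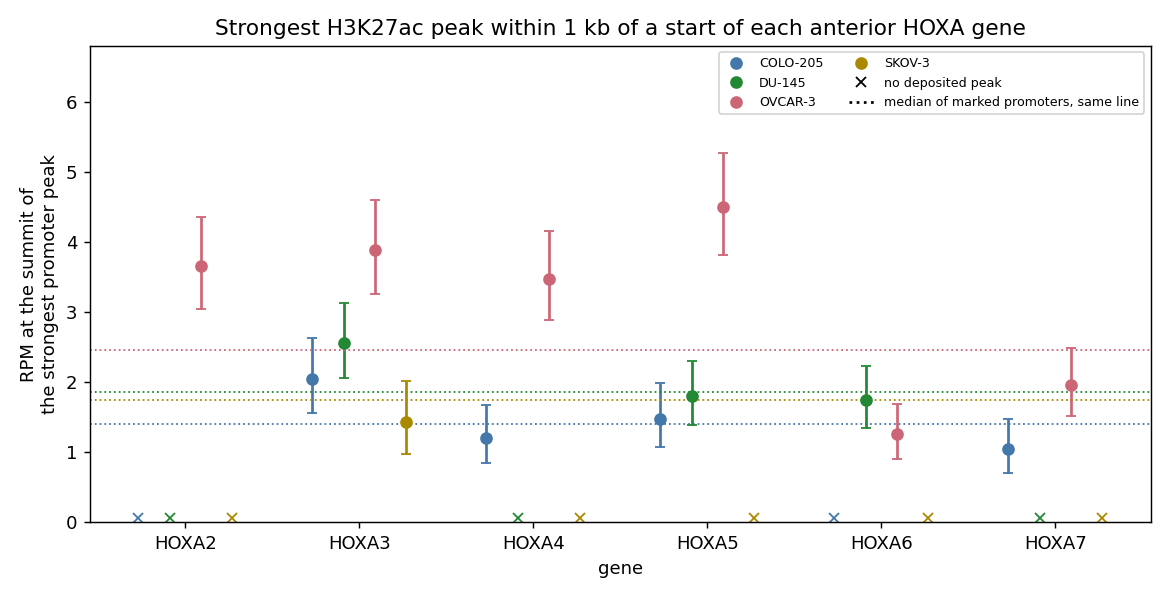
RPM at the summit of the promoter peak with the highest −log10 q (vertical axis) for the 6 anterior HOXA genes in the 4 lines; points are values, bars are exact Poisson 95% intervals, crosses mark genes without a deposited peak and dotted lines are the median over marked protein-coding promoters of the same line. HOXA2, HOXA3, HOXA4 and HOXA5 lie between 3.48 and 4.50 in OVCAR-3, above its median of 2.46, and HOXA6 and HOXA7 lie below it.

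The order of the genes by RPM in OVCAR-3 was HOXA5, HOXA3, HOXA2, HOXA4, HOXA7 and HOXA6. Neighbours in this order had overlapping intervals, except that HOXA4 (2.88 to 4.16) stood above HOXA7 (1.52 to 2.49). Read against other promoters of the same line, the median of the 6 in OVCAR-3 was 3.57 RPM, and the median of its 12189 marked protein-coding promoters was 2.46. In COLO-205 the 4 marked genes had a median of 1.34 and all marked promoters 1.41, and in DU-145 the 3 marked genes had 1.80 and all marked promoters 1.86. The HOXA3 value of SKOV-3 was 1.43 against a median of 1.74. The median share of the start windows covered, over all 6 genes with unmarked ones at 0, was 47.8% in OVCAR-3, 10.6% in DU-145 and 16.6% in COLO-205, but 0% in SKOV-3. Marked promoters alone had a median of 15.2% in OVCAR-3, 18.6% in DU-145 and 9.97% in COLO-205, but 7.27% in SKOV-3. The marked HOXA genes had 13.4 to 75.9% in OVCAR-3, 21.1 to 69.7% in DU-145 and 15.7 to 29.8% in COLO-205, but 3.19% in SKOV-3, so those of DU-145 and COLO-205 were all above the median of their line and that of SKOV-3 was below.

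Restricting each gene to its canonical start changes the picture for HOXA3 and HOXA6. Of the 6 canonical starts 5 had a peak within 1 kb in OVCAR-3, 1 in DU-145 and 3 in COLO-205, but 0 in SKOV-3, beside 56.6%, 56.1%, 44.7% and 29% of all protein-coding genes. The canonical start itself lay inside a peak for 1 gene in OVCAR-3 and for no gene in the other lines. Of the 18 annotated starts of the 6 genes, 17 had a peak within 1 kb in OVCAR-3, 12 in COLO-205, 4 in DU-145 and 1 in SKOV-3. Several of these starts share a peak, so they are not independent observations.

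Beyond the start windows, the whole stretch was compared. Between HOXA2 and HOXA7, OVCAR-3 had 29 peaks over 33.7% of the bases, DU-145 8 over 11.1%, COLO-205 11 over 7.11% and SKOV-3 1 over 0.445%. Among 52716 consecutive genome windows of the same length, 0.341% had at least the OVCAR-3 coverage in that line, against 2.67% for DU-145, 2.85% for COLO-205 and 10.2% for SKOV-3. Of the 2763 such windows on chromosome 7, 0 reached the OVCAR-3 value, and 0.941%, 0.434% and 1.3% reached those of DU-145, COLO-205 and SKOV-3. In OVCAR-3, 13 of the 29 peaks lay more than 1 kb from every GENCODE start of the 6 genes, and 11 of the 29 were in the strongest 10% of its list, compared with 2 of 11 in COLO-205 and 2 of 8 in DU-145. Of those 13, 6 lay within 1 kb of a start of HOXA-AS2 on the other strand and 3 within 1 kb of a RefSeq HOXA3 start, which leaves 6 near neither. The strongest of the 13, chr7:27154982-27156042, had its summit 269 bp from a HOXA-AS2 start and 3.97 RPM (3.33 to 4.70).

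All 11 COLO-205 peaks between HOXA2 and HOXA7 overlapped an OVCAR-3 peak, and so did 7 of 8 DU-145 peaks, beside 19.3% and 31.0% of all peaks in these lists. In the other direction 9 of 29 OVCAR-3 peaks overlapped a COLO-205 peak and 6 of 29 a DU-145 peak, beside 20.0% and 32.0% of its whole list. The other 17 (58.6%) overlapped no other list, as did 59.3% of all OVCAR-3 peaks, so this share was near that of the list. Between COLO-205 and DU-145, 5 of 11 COLO-205 peaks and 4 of 8 DU-145 peaks overlapped, beside 17.4% and 18.0% of the lists. Peaks lay denser in this stretch than over the genome, at 33.7% against 1.33% of bases in OVCAR-3 and 11.1% against 1.47% in DU-145. The whole-list shares do not allow for this, and the part of peak density in these overlaps was not tested.

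A set of 3 further stretches is shown as sequence because they hold peaks of OVCAR-3 alone or of several lines. The first is the OVCAR-3 peak chr7:27142999-27143754, whose summit lies 1024 bp upstream of HOXA2, with 3.01 RPM and no overlap in another list. The second lies in a HOXA3 intron and an exon of HOXA-AS2, where the peaks of every line but SKOV-3 share chr7:27155145-27155521 and have summits within 79 bp. The third has no annotated gene, between HOXA7 and HOXA9, where the same 3 lines share chr7:27200165-27200639 with summits within 72 bp. Each line gives the 200 bases around the OVCAR-3 summit, 5′ to 3′ on the strand of the HOXA genes, with the same motifs in capitals.
HOXA2 upstream, OVCAR-3 summit, chr7:27143229-27143428, minus strand: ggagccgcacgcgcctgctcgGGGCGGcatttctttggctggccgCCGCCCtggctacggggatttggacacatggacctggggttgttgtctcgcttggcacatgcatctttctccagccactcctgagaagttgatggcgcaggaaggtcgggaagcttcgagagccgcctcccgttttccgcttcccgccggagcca
HOXA3 intron, summit shared by 3 lines, chr7:27155286-27155485, minus strand: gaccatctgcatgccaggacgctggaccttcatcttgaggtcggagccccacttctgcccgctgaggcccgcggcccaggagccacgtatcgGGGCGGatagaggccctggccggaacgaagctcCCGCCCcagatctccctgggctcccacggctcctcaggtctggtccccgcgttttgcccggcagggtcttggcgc
Between HOXA7 and HOXA9, summit shared by 3 lines, chr7:27200451-27200650, minus strand: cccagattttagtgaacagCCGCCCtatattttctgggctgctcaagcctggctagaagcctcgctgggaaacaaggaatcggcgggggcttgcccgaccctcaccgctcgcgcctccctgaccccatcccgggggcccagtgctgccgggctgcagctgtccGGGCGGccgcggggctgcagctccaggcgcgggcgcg

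GC boxes were the motif these stretches held, 2 in each, and GGGCGG occurred around 19.3% of all 76091 OVCAR-3 summits that could be read. Around the 29 OVCAR-3 summits between HOXA2 and HOXA7, it occurred in 11, CCAAT in 2, AGGTCA in 3, TATAAA in 1 and TGATNNAT in 0. Over all OVCAR-3 summits the shares were 12.9% for CCAAT, 21.9% for AGGTCA, 3.21% for TATAAA and 2.17% for TGATNNAT. The 29 windows had a median of 13 CpG dinucleotides in 200 bases and a GC content of 64.0%, against 5 and 56.5% over all OVCAR-3 summits.

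The line with the most coverage was not the same over the anterior and the posterior HOXA genes. Between HOXA9 and HOXA13 the covered share was 16.4% in COLO-205, 1.75% in OVCAR-3, 9.43% in DU-145 and 0.672% in SKOV-3, so COLO-205 was highest there and OVCAR-3 was highest over the anterior genes. Of the 4 posterior genes HOXA9, HOXA10, HOXA11 and HOXA13, a promoter peak was listed for all 4 in COLO-205 and for 3 in DU-145, but for HOXA9 alone in OVCAR-3 and for HOXA10 alone in SKOV-3. In OVCAR-3 the single posterior peak had 1.17 RPM, whereas the anterior promoter peaks went up to 4.50. In the 50 kb beyond HOXA13 the covered share was at most 1.27% in any line.

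**Figure D4:**
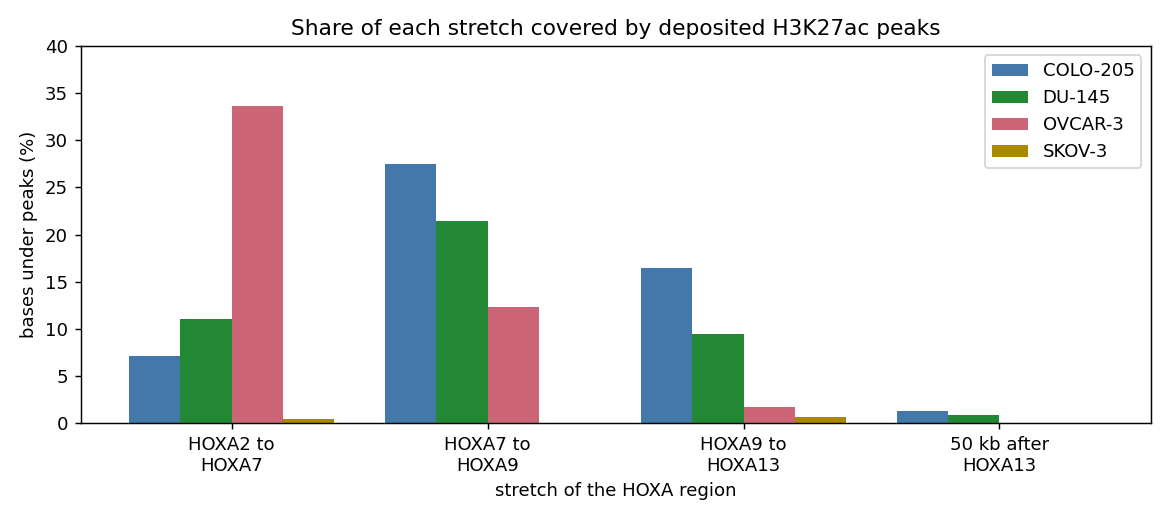
Share of bases under deposited peaks (vertical axis, %) in 4 stretches of the HOXA region in order from HOXA2 to 50 kb beyond HOXA13, with 1 bar per line. From HOXA2 to HOXA7 the shares are 33.7% in OVCAR-3, 11.1% in DU-145 and 7.11% in COLO-205, but 0.445% in SKOV-3, and from HOXA9 to HOXA13 they are 1.75%, 9.43%, 16.4% and 0.672%.

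The 2 ovarian lines differed most over these genes, with 6 and 1 of the 6 marked, yet the order was the other way in the HOXB cluster. HOXB2 to HOXB7, the nearest relatives of the anterior HOXA genes, had promoter peaks for 6 of 6 genes in SKOV-3, 4 of 6 in OVCAR-3 and 5 of 6 in COLO-205 and DU-145. In SKOV-3 their strongest peaks had 2.14 to 3.35 RPM, above the 1.43 of HOXA3. In OVCAR-3 the marked HOXB genes had a median of 1.70 and the HOXA genes 3.57, though their ranges, 1.02 to 2.28 and 1.26 to 4.50, overlapped. HOXB2, for example, had 3.35 RPM in SKOV-3 (2.63 to 4.20) and 1.49 in OVCAR-3 (1.11 to 1.96), intervals that did not overlap, while HOXA2 had 3.65 in OVCAR-3 and no peak in SKOV-3. The HOXB cluster lies on chromosome 17, and the part of the few SKOV-3 peaks on chromosome 7 in this difference was not tested. Over all 11 paralogues of groups 2 to 7, 8 had a peak in OVCAR-3, 9 in COLO-205, and 7 in both DU-145 and SKOV-3.

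**Figure D5:**
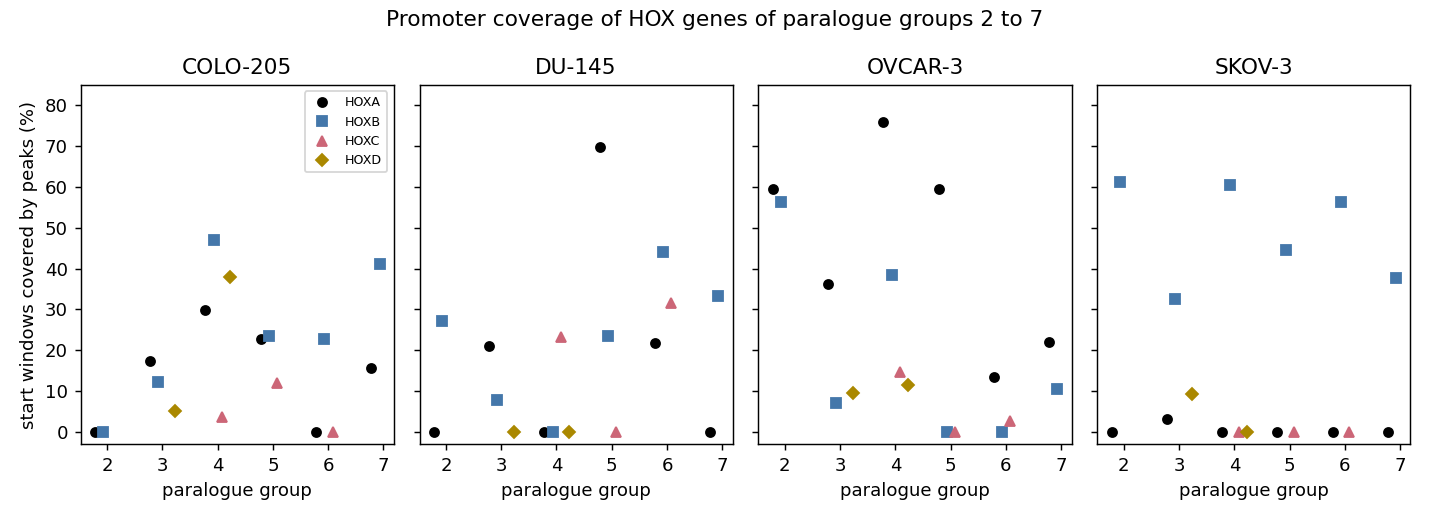
Share of the start windows covered by peaks (vertical axis, %) for HOX genes of paralogue groups 2 to 7 (horizontal axis) in the 4 lines, with 1 symbol per HOX cluster. In SKOV-3 the HOXB genes have a median of 50.4% and the HOXA genes a median of 0%, and in OVCAR-3 the medians are 8.81% and 47.8%.

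Genes that work with HOX proteins were marked in most lines. TALE cofactors had a promoter peak for 5 of 9 genes in SKOV-3 and for 6 of 9 in each of the other lines. MEIS1, which encodes a partner of HOX proteins, had 4.30 RPM in OVCAR-3 (3.63 to 5.05), 1.70 in SKOV-3, 1.28 in DU-145 and no peak in COLO-205. PKNOX1 had a peak in all 4 lines. The retinoic acid genes, whose signal turns on anterior HOX genes in embryos, had peaks for 6, 7, 5 and 5 of 8 genes in OVCAR-3, DU-145, COLO-205 and SKOV-3. Polycomb and Trithorax regulators had them for 10, 9, 8 and 6 of 10 in the same order. Among the non-coding transcripts of the cluster, HOXA-AS2, which overlaps HOXA3 on the other strand, was marked in all 4 lines, with 8 peaks in OVCAR-3. The flanking genes SKAP2, HIBADH and TAX1BP1 had peaks in every line but SKOV-3, and EVX1 had none in any line.

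The genes whose promoter pattern was most like the median of the 6 were TMX4, C3orf52, MKX, EPHB1 and SLC49A4. Likeness was the mean absolute difference, over the 4 lines, of the percentile of the strongest promoter peak in its list, with 0 where there was none. The median pattern was 96.3 in OVCAR-3, 42.3 in DU-145 and 41.3 in COLO-205, with 0 in SKOV-3, and these 5 genes differed from it by 2.59 to 3.61 percentile points. The 6 genes themselves differed from their median by 18.2 (HOXA4) to 40.1 points (HOXA3), so the median describes none of them closely.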

How the data were processed

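H3K27ac ChIP-seq peaks of 4 cell lines were analysed, 1 library each. Per the methods and the submitters' processing notes, the authors mapped reads to hg19 (GRCh37) with Bowtie2 2.1.0 and ran the peak caller MACS2 2.1.0.20150603 on each library at a q below 0.001. The deposited lists hold, for each peak, a score, a fold enrichment (a ratio to the local background) and both p and q as −log10, none scaled between libraries. The methods state a merging of close peaks, and the lists hold neighbours closer than 350 bp, so peaks were used as deposited.

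The summit pileup was solved from the enrichment and the −log10 p of the deposited lists, within 0.001, for at least 99.9% of peaks in each list. Library tags were derived from the lowest background found, 2700000000 genome positions and a fragment length equal to the narrowest peak. The solver recovered 100% of 4000 simulated summits for each line. Transcript starts came from GENCODE lifted to hg19, with windows of 1 kb. Sequences were read from GRCh37. Python 3.11.15, numpy 2.4.6, scipy 1.17.1 and matplotlib 3.10.9 were used. With 1 library per line no test was made. All 6 genes were named, then at most 4 genes of each comparison list in order of −log10 q, the 5 genes of most like pattern, and peaks of the cluster by −log10 q. The genes and lists were chosen with earlier results of these data known. Alternatives were other windows, thresholds, list lengths, merging, start sets and fragment lengths.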

Additional observations from a re-analysis of the deposited data

How the results depend on the processing

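No paired analysis was possible because each line has only a single library. Of 108 alternative values, 20 came from settings that left every peak of the region as it was and say nothing of stability. Of the other 88, 67 stayed within 1.5 times the main value (or, for RPM, within its Poisson interval) and 21 moved; the causes were not tested beyond what each construction sets. The order in which OVCAR-3 had the most anterior genes marked and SKOV-3 the fewest held under every setting for that count. With 1 canonical start per gene the genes marked fell to 1 in DU-145 and 0 in SKOV-3, and with 5 kb windows DU-145 had 5. With 14001 peaks in every list, 2 genes were marked in COLO-205, 3 in DU-145 and 4 in OVCAR-3, so COLO-205 fell below DU-145, and the pair was level at 5 kb and at a −log10 q of at least 10. The peaks of the cluster and its surroundings then numbered 8 in COLO-205, 8 in DU-145 and 17 in OVCAR-3. A −log10 q of at least 10 left 15 in COLO-205, 12 in DU-145 and just 1 in SKOV-3, and the stretch from HOXA2 to HOXA7 alone held 11, 8 and 1. The covered share of the anterior stretch was 4.21% in COLO-205 at a −log10 q of at least 10. With equal list lengths it was 3.27% in COLO-205 and 6.18% in DU-145. Over the whole cluster the share was 10.8% in COLO-205 and 21.7% in OVCAR-3, and with 50 kb around it 0.246% in SKOV-3 and 11.4% in OVCAR-3. The COLO-205 peak strongest by fold enrichment had 1.48 RPM in place of 2.05. A common floor of 0.491 RPM, chosen after the data were seen, lies below the weakest peak of the region in any line (0.499 RPM), so it could remove none. SKOV-3 had the fewest tags (2.24e+07) and the highest floor at a background near the median of the HOXA peaks. Depth, background and completeness of the SKOV-3 list were not separated.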
